A study of Mus musculus with 6 samples.

Results

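The mitochondrial ribosomal protein genes were compared between young and aged male mice in gastrocnemius, a muscle of the calf. A gene was a member if the platform's gene table gave a probe set 1 symbol that began with Mrpl or Mrps followed by a digit. This rule found 156 probe sets of 45101 and 76 genes of 18193 named ones, 47 with an Mrpl symbol (large subunit) and 29 with an Mrps symbol (small subunit). Each gene was represented by its probe set with the highest mean log2 signal over the 6 arrays. Total RNA of muscle from male C57B1/6 mice, as the labels spell the strain, was hybridised to Affymetrix Mouse430_2 arrays, 3 of young mice (replicates 1, 2 and 3) and 3 of aged mice (replicates 51, 52 and 53). Both groups are described as normal, with no treatment or altered allele named. No source used here gives the ages. Nor do the labels name separate animals for the arrays, and the p-values then rest on a spread between samples that may be only technical.

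The mitochondrial ribosome makes the few proteins that are encoded in mitochondrial DNA, all of them core parts of the respiratory chain and the ATP synthase. Its own proteins are encoded in the nucleus, translated in the cytosol and imported, and they assemble on ribosomal RNA that mitochondria transcribe themselves. The small subunit binds messenger RNA and reads its codons, and the large subunit joins the amino acids. Some of the proteins have counterparts in the bacterial ribosome, and others are found only in mitochondria. Skeletal muscle is rich in mitochondria, and most of all its slow, oxidative fibres.

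All 10 markers of skeletal muscle fibres, among them skeletal actin (Acta1) and muscle creatine kinase (Ckm), were tested, and their lowest signal on any array was 37964.5, in a table whose median signal per array lay between 637 and 833. These markers show skeletal muscle but not which muscle it was, and markers of slow fibres and matrix, given with the other lists, differed between the groups. Correlations between arrays on the log2 scale lay between 0.69 and 0.81, and no array duplicated another. Washing used station 1 for all young arrays and for aged replicate 51, and station 2, under another protocol name, for aged replicates 52 and 53. The log2 ratio of 3 prime to 5 prime signal of control genes, a measure of RNA integrity, was 1.71 to 1.77 on the young arrays. It was 2.11, 2.00 and 2.86 on aged replicates 51, 52 and 53, so every aged array was above every young array.

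Aged and young muscle were set side by side to ask whether transcripts of these proteins differ with age. No mitochondrial ribosomal protein gene passed the test. Of the 76 genes 73 were bright enough to be tested, and the 3 others are described separately. In limma's fit over all 22519 tested probe sets, with Benjamini-Hochberg adjustment at 0.05, 0 of the 73 passed in either direction, where 1.05% of all tested probe sets did (0.742% lower and 0.311% higher in aged muscle) and 1.39% of genes represented by a single probe set each. The smallest adjusted p among members was 0.279, for Mrpl42. At limma's unadjusted p under 0.05, 9 members were lower in aged muscle and 0 were higher. The shares over all tested probe sets were 5.61% lower and 4.43% higher. With a single brightest probe set for each gene they were 6.60% and 4.78%.

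Differences are given as aged minus young on the log2 scale, with limma's standard error (SE) and n = 3 arrays per group. Of the 73 tested members 48 had a negative and 25 a positive difference, and the median was -0.17 (quartiles -0.40 and 0.098). Over all tested probe sets 49.5% were negative and the median was 0.0079. The groups did not overlap on 17 members, beside 16.2% of all tested probe sets. On 15 of them every aged array lay below every young array, as on 8.74% of all tested probe sets (9.63% with a single probe set per gene). On 2 every aged array lay above every young array, as on 7.41% (7.58% with a single probe set per gene). The 15 were 11 large and 4 small subunit genes. The means differed by more than 2-fold for 4 of the 73 members, Mrpl40, Mrpl43, Mrpl14 and Mrpl34. They did so for 4248 of all 22519 tested probe sets, and for 2051 of 11763 genes with a single probe set each.

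Members were bright, and bright probe sets as a whole leaned lower in aged muscle. When the tested probe sets were divided into 5 groups by mean signal, 36 of the 73 members fell in the brightest group and 22 in the next. In the brightest group 8 of 36 members (22.2%) had an unadjusted p under 0.05, beside 22.2% of all probe sets there. The median difference there was -0.19 for members and -0.11 for all probe sets, and 27 of 36 members were negative beside 59.5% of all. In the next group the median of the 22 members was almost exactly 0 and 11 were negative.

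The members' count and median shifted when single arrays were left out. The count of 9 lower members at an unadjusted p under 0.05 was 3, 2 and 3 without young replicate 1, 2 and 3. It was 5 without aged replicate 51 or 52, and 11 without aged replicate 53. The share of all tested probe sets that were lower by this rule moved from 5.61% to 3.65%, 3.99% and 3.93% without young replicate 1, 2 and 3. It was 5.42%, 5.43% and 8.71% without aged replicate 51, 52 and 53. The median stayed negative with each array left out, at -0.083 without aged replicate 51, -0.11 without young replicate 2 and -0.28 without aged replicate 53. With the 3 prime to 5 prime ratio as a covariate it was -0.39, and within station 1, where aged replicate 51 is the sole aged array, it was -0.25. Centring each array on its median moved the median of all tested probe sets to -0.11 and that of the members to -0.28. Centring shifts all probe sets of an array alike, so the difference of -0.18 between these medians could not change.

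**Figure D1:**
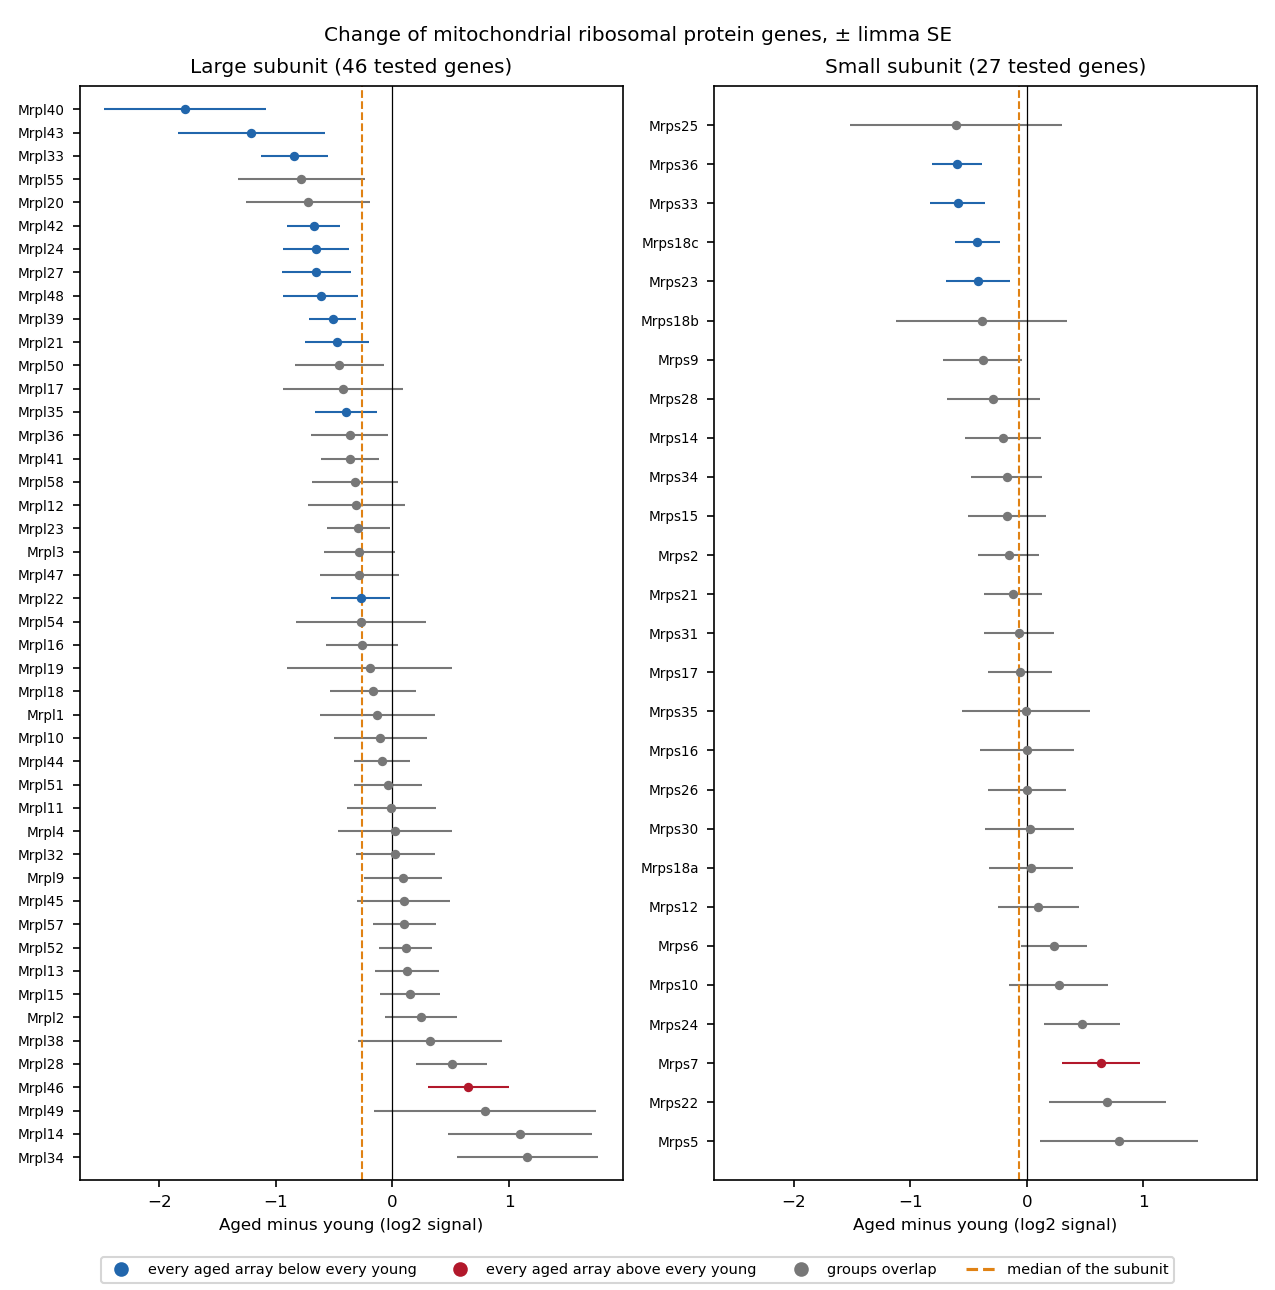
Aged minus young difference in log2 signal (horizontal axis) of each tested member, with limma's SE as bars, for 46 large and 27 small subunit genes; the dashed line is the subunit's median. Blue marks the 15 genes on which every aged array lay below every young array and red the 2 on which every aged array lay above, and Mrpl40 has the most negative and Mrpl34 the most positive difference.

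Precision differed among members. The SE lay between 0.19 and 0.95 with a median of 0.34, beside 0.56 over all tested probe sets. The 95% interval of the difference lay within 2-fold in both directions for 34 of the 73 members (46.6%), beside 15.8% of all tested probe sets.

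Among large subunit genes the greatest negative differences belonged to Mrpl40 and Mrpl43, proteins with no bacterial counterpart. Mrpl40 had log2 signals of 11.32, 11.43 and 11.63 on the young arrays and 7.75, 10.80 and 10.49 on aged replicates 51, 52 and 53. The aged arrays were all lower, and replicate 51 stood far below the other two. The difference was -1.78 ± 0.69 (adjusted p = 0.397), and it was -0.81 without aged replicate 51. With the station as a covariate, an estimate that rests on aged replicate 51, it was -3.71 (limma adjusted p = 0.0151), the only member past the threshold in that fit; its adjusted p over 18 alternatives ranged from 0.0151 to 0.626. Mrpl43 had 10.47, 10.00 and 11.01 in young and 9.79, 8.38 and 9.67 in aged muscle. Every aged array was lower here too, by a margin smaller than the spread among the young arrays (-1.21 ± 0.63, adjusted p = 0.556).

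Other large subunit genes had smaller differences. Mrpl33, a counterpart of bacterial L33, had 12.74, 12.46 and 12.19 in young and 11.83, 11.49 and 11.54 in aged muscle (-0.84 ± 0.29, adjusted p = 0.299). Its other tested probe set was at -0.27. Mrpl42, a mitochondria-specific protein, had 14.15, 14.36 and 14.11 in young and 13.30, 13.45 and 13.84 in aged muscle (-0.68 ± 0.22, adjusted p = 0.279). Mrpl39, another mitochondria-specific protein that resembles part of a threonyl-tRNA synthetase, had 15.80, 15.67 and 15.65 in young and 14.97, 15.33 and 15.27 in aged muscle. Its groups did not overlap (-0.51 ± 0.20, adjusted p = 0.39), and its other probe set was at -0.58. Mrpl55 was at -0.78 ± 0.54 (adjusted p = 0.663), with overlapping groups.

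Proteins of the catalytic core and the exit tunnel, picked here for their roles after their values were seen, had differences of both signs, and none passed. Mrpl27, which reaches the site where amino acids are joined, was at -0.65 ± 0.29, with every aged array lower, while its other probe set was at 0.26. Mrpl24 and Mrpl22, at the tunnel through which the new protein leaves, were at -0.66 ± 0.28 and -0.27 ± 0.25, again with no overlap between groups. Mrpl23, at the same tunnel exit, was at -0.29 ± 0.27 with overlapping groups. Mrpl45, which ties the tunnel exit to the inner membrane, was at 0.098 ± 0.40, and the core proteins Mrpl2, Mrpl3 and Mrpl4 were at 0.25 ± 0.31, -0.28 ± 0.30 and 0.022 ± 0.49.

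The stalk that recruits translation factors showed small differences against its spread. Mrpl12, its mobile part, had 11.48, 10.36 and 11.25 in young and 10.84, 10.64 and 10.69 in aged muscle (-0.31 ± 0.42, adjusted p = 0.832). The aged values lay inside the young range. Mrpl10 and Mrpl11, at the base of the stalk, were at -0.10 ± 0.40 (adjusted p = 0.947) and -0.0092 ± 0.38 (adjusted p = 0.996). The other 2 tested probe sets of Mrpl11 were positive, at 0.15 and 0.44.

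The most positive large subunit genes were Mrpl34, Mrpl14, Mrpl49 and Mrpl46. Mrpl34 had 8.82, 11.48 and 10.94 in young and 12.06, 11.60 and 11.06 in aged muscle (1.16 ± 0.61, adjusted p = 0.559). Young replicate 1 stood more than 2 units below every other array. Mrpl14, at the face that meets the small subunit, had the same outlying array, with 9.09, 12.12 and 11.38 in young and 12.04, 12.31 and 11.53 in aged muscle (1.09 ± 0.62, adjusted p = 0.589). Without young replicate 1 the differences were 0.36 for Mrpl34 and 0.21 for Mrpl14. Mrpl49 was at 0.79 ± 0.95 (adjusted p = 0.812), with 7.15 on young replicate 2 and 8.88 to 10.04 on all other arrays. It was at -0.059 without that array. Mrpl46 had 11.02, 11.02 and 11.19 in young and 12.24, 11.66 and 11.29 in aged muscle, every aged array above every young array (0.65 ± 0.35, adjusted p = 0.57). Mrpl52 was among the most precisely measured large subunit genes, at 0.11 ± 0.23 (adjusted p = 0.894).

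Small subunit genes covered a narrower range, from -0.61 to 0.79. Mrps36 had 13.81, 13.87 and 13.87 in young and 13.48, 13.08 and 13.19 in aged muscle, with no overlap (-0.60 ± 0.22, adjusted p = 0.345). This protein bears a ribosomal name but is known as part of the oxoglutarate dehydrogenase complex. Mrps33, a mitochondria-specific protein, had 13.54, 13.56 and 13.09 in young and 12.87, 12.67 and 12.86 in aged muscle, again with no overlap (-0.59 ± 0.24, adjusted p = 0.418). Mrps23, also mitochondria-specific, was at -0.42 ± 0.27 with no overlap, and its other probe sets were at -0.65 and -0.38. Mrps25 was at -0.61 ± 0.91 (adjusted p = 0.847), with 7.61 on aged replicate 51 and at least 8.70 on every other array.

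The family of Mrps18 proteins, each related to bacterial S18, had no shared direction. Mrps18c had 14.76, 14.93 and 14.82 in young and 14.33, 14.43 and 14.48 in aged muscle. The aged arrays were all lower, and both groups were tight (-0.42 ± 0.19, adjusted p = 0.496). Mrps18b ranged from 9.18 to 10.91 in young and from 8.38 to 10.81 in aged muscle (-0.39 ± 0.73, adjusted p = 0.886). Mrps18a had 11.32, 11.44 and 11.44 in young and 11.24, 11.02 and 12.06 in aged muscle (0.038 ± 0.36, adjusted p = 0.983), and its sign turned under 8 of 18 alternatives.

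On the positive side Mrps7, a protein of the head of the small subunit, had 10.72, 11.07 and 11.22 in young and 11.44, 11.72 and 11.77 in aged muscle. Every aged array was above every young array (0.64 ± 0.34, adjusted p = 0.56). Mrps5, whose level has been linked to lifespan in mouse strains, had 10.03, 8.21 and 10.48 in young and 10.89, 10.15 and 10.04 in aged muscle. The groups overlapped and young replicate 2 stood low (0.79 ± 0.68, adjusted p = 0.731). Its 3 other tested probe sets ranged from -1.28 to 0.34, and the average of its probe sets was at -0.32. Mrps22, a mitochondria-specific protein, was at 0.69 ± 0.50 (adjusted p = 0.676) and Mrps24 at 0.47 ± 0.33 (adjusted p = 0.663), where its other probe set was at 0.49. Mrps12, which helps keep decoding accurate, was at 0.099 ± 0.35 (adjusted p = 0.941). Mrps15, a counterpart of bacterial S15, was at -0.17 ± 0.33 (adjusted p = 0.89), and Mrps30, which lies in the large subunit of the assembled ribosome, was at 0.025 ± 0.38 (adjusted p = 0.989).

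**Figure D2:**
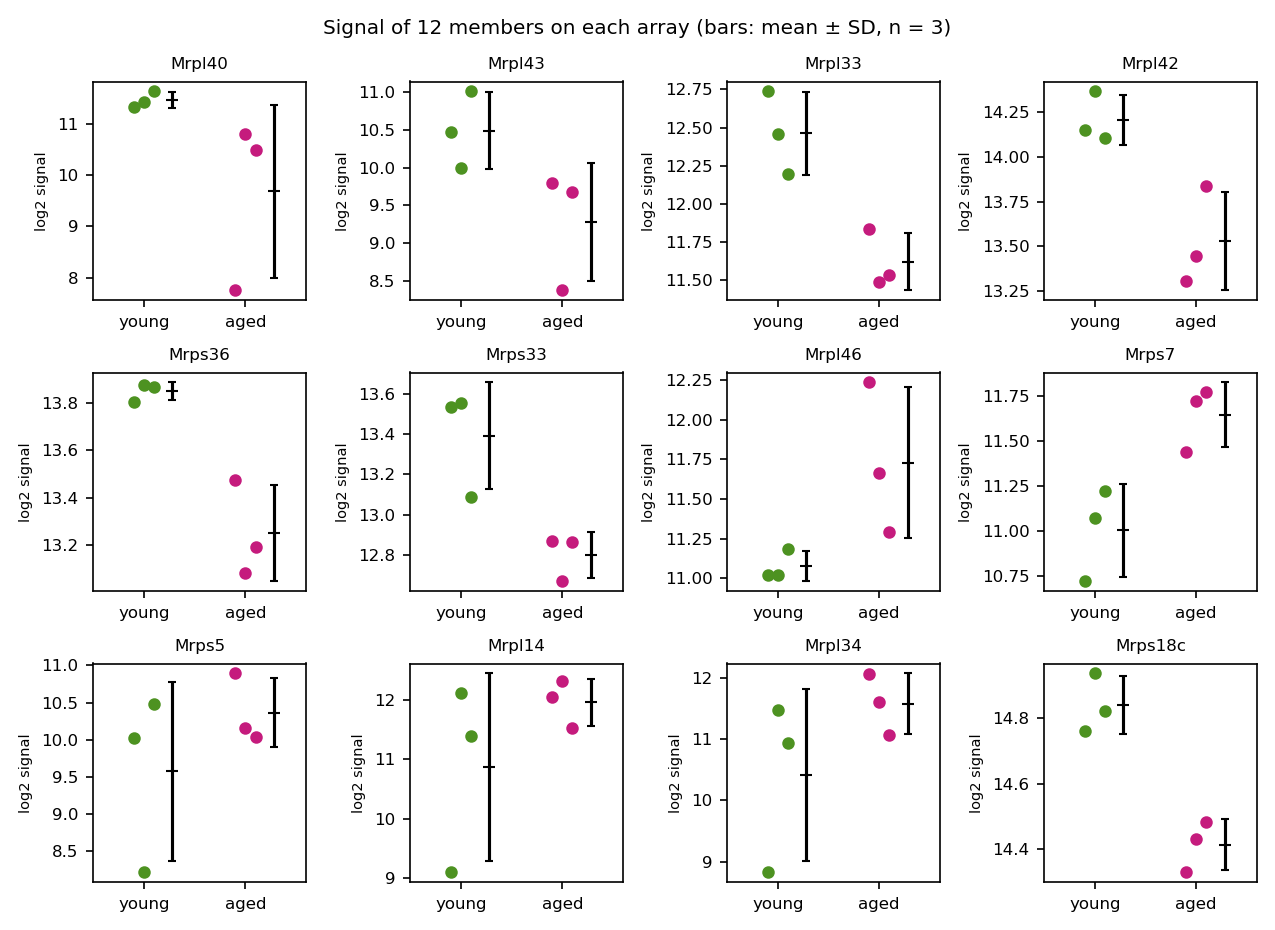
Log2 signal (vertical axis, scaled for each panel) of 12 members on each array, green for young and pink for aged muscle, with the mean and SD of 3 arrays beside the points. Mrpl33, Mrpl42, Mrps36, Mrps33 and Mrps18c have tight groups that do not overlap, while Mrpl34 and Mrpl14 have young replicate 1 far below the other arrays.

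The other tested members lay between -0.72 (Mrpl20) and 0.51 (Mrpl28). Mrpl48, Mrpl21 and Mrpl35 also had every aged array below every young array, at -0.62 ± 0.32, -0.47 ± 0.27 and -0.40 ± 0.27. Each of these had further tested probe sets of both signs. They were at -0.81 and 0.19 for Mrpl48, -0.59 and 0.14 for Mrpl21, and -0.22 and 0.74 for Mrpl35. Mrpl51 and the RNase III-like protein Mrpl44 were at -0.036 ± 0.29 and -0.090 ± 0.24, and Mrpl58, which rescues stalled ribosomes, was at -0.32 ± 0.37, each with overlapping groups. The 3 members below the filter were Mrpl37, Mrps11 and Mrps27. Mrpl37 had 10.92, 10.41 and 6.27 in young and 6.39, 9.79 and 9.94 in aged muscle, so it varied more within groups than between them. Mrps11 ranged from 7.03 to 10.48 in young and from 7.38 to 9.02 in aged muscle, and Mrps27 from 7.29 to 8.88 and from 5.99 to 9.10.

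Large and small subunit genes were then compared. Of 46 tested large subunit genes 31 were negative, with a median of -0.27. At limma's unadjusted p under 0.05, 6 were lower and 0 higher, beside 6.60% and 4.78% of all tested genes with a single probe set each. Of 27 tested small subunit genes 17 were negative, with a median of -0.067, and 3 were lower and 0 higher. That median was 0.0098 without aged replicate 51, so its sign turned, and -0.43 with the RNA integrity ratio as a covariate. The large minus small difference of medians was -0.20. It was -0.14 with Mrps18a and Mrps30 placed in the large subunit and Mrps36 left out. Array by array, the median deviation of large subunit genes from their own means was above that of small subunit genes by 0.11, 0.011 and 0.18 on young replicates 1, 2 and 3. On aged replicates 51, 52 and 53 the corresponding values were 0.0053, -0.0047 and -0.14. The highest aged value thus lay just under the lowest young value, and the pooled SD of this quantity between arrays of a group was 0.083. The difference was -0.092 without young replicate 2, -0.099 without aged replicate 51, and 0.039 with the RNA integrity ratio as a covariate, so its direction turned there. No test of this score was made, since members share their arrays.

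Members with and without a bacterial counterpart had similar medians. The 46 tested members with one had a median of -0.16, with 30 negative, and the 27 without had a median of -0.17, with 18 negative. Of the former 7 of 46 had every aged array below every young array, and of the latter 8 of 27. The share over all tested genes with a single probe set each was 9.63%. Whether these counts differ between the classes was not tested.

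**Figure D3:**
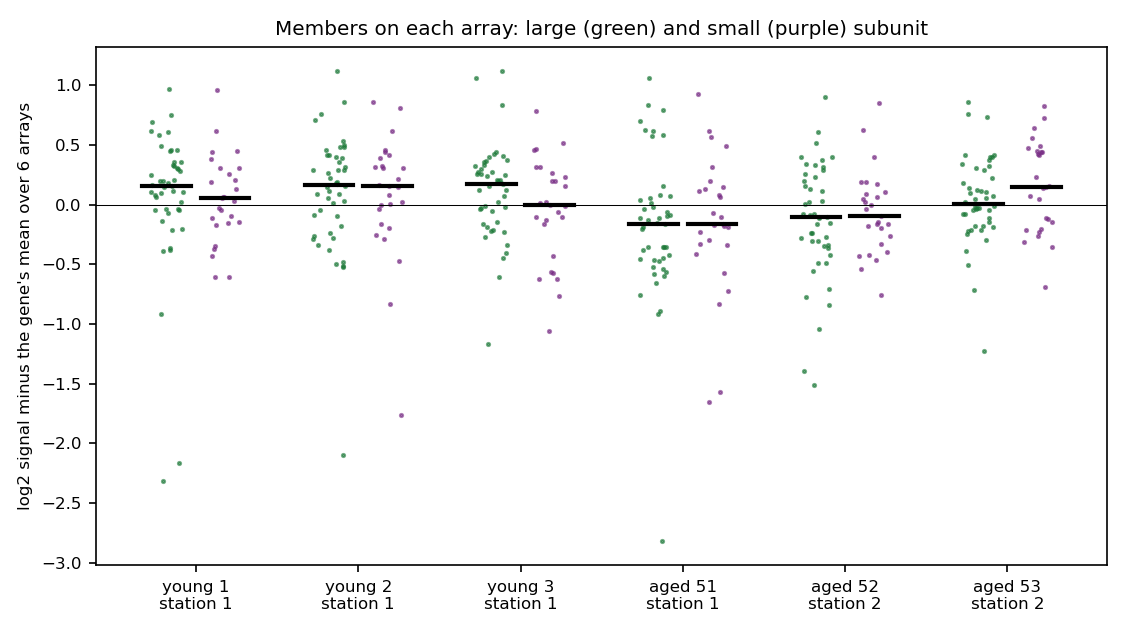
Log2 signal of each tested member minus its own mean over the 6 arrays (vertical axis) by array, green for large and purple for small subunit genes, with black bars at the medians. The medians of both subunits lie lowest on aged replicate 51, and on aged replicate 53 they are at 0.0065 for large and 0.14 for small subunit genes.

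The aged arrays were not alike. The median deviation of all 73 members was 0.11, 0.15 and 0.12 on young replicates 1, 2 and 3, and -0.16, -0.10 and 0.056 on aged replicates 51, 52 and 53. The same score over all tested probe sets lay between 0.070 and 0.086 on the 6 arrays. On the members' score all aged arrays were below all young arrays, and replicate 53 was nearest to them. Replicate 51 gave the lowest of the 6 values for 27 of the 73 members, replicate 52 for 17 and replicate 53 for 6. Replicate 53 had the highest ratio of 3 prime to 5 prime control signal and shared its station with replicate 52. Their part in the members' values was not tested beyond the fits with these covariates.

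Different probe sets of a gene often differed in sign. Of 117 tested member probe sets 0 passed and 67 had a negative difference. Of 26 members with several tested probe sets, 9 had all of them on the same side of 0 and 17 had some on each side. Signs were counted without regard to the SE, so a split can lie within it. The other tested probe set was at 1.08 ± 1.22 for Mrpl3 and at 0.31 ± 0.25 for Mrpl44. Averaging the tested probe sets of each gene gave a member median of -0.12. Of the 73 representatives 32 carry a suffix of probe sets prone to cross-hybridisation.

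The promoters of these genes were searched for motifs of factors known to control genes of mitochondrial proteins, in RefSeq entries of GRCm38.p6 that hold 250 bases before and 50 after each start. Of the 76 members 67 had an entry, and 73 entries belonged to them. Both strands were searched. No motif contains another, though the end of the GABPA core and the start of the YY1 motif can share letters. The GABPA core CCGGAAG was in 34.2% of member entries and 8.86% of all 32851 entries. The NRF1 core GCGCANGCG was in 20.5% and 6.25%, the YY1 motif AAGATGGCG in 11.0% and 1.40%, and the SP1 motif GGGCGG in 53.4% and 35.7%. The ESRRA motif TCAAGGTCA was in 0 member entries and 0.423% of all. A match of letters is a description and not evidence that the factor binds.

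Members with and without each motif that had a match had negative medians. The 24 tested members with a GABPA match had a median of -0.28, with 17 negative, and the 40 without one -0.14, with 26 negative. For NRF1 the 15 with a match were at -0.10 and the 49 without at -0.21. For SP1 the 32 with a match were at -0.092 and the 32 without at -0.28. For YY1 the 5 with a match were at -0.37, with 3 negative, and the 59 without at -0.17, with 40 negative. No test was made of these medians.

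The 150 bases before the start of 5 members are shown because on each of them every aged array lay below every young array and the window holds a whole GABPA or NRF1 match on either strand, in capitals. They lie at chr11:58171514-58171663 on the plus strand (Mrpl22), chr11:94653641-94653790 on the plus strand (Mrpl27), chr16:84735245-84735394 on the minus strand (Mrpl39), chr19:45006443-45006592 on the minus strand (Mrpl43) and chr7:100583131-100583280 on the minus strand (Mrpl48) of GRCm38.p6. Mrpl48 has 4 entries with different starts, and this is the only one of them with such a match. Each is written 5′ to 3′ on the strand of its gene.
Mrpl22: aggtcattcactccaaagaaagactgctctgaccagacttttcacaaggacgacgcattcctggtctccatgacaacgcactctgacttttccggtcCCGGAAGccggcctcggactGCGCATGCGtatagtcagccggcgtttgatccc
Mrpl27: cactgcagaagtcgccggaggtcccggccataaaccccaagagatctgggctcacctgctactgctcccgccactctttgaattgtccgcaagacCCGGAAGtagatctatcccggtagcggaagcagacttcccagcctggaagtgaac
Mrpl39: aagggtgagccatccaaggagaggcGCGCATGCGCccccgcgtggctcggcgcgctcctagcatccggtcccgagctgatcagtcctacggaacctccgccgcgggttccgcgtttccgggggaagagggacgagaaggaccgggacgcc
Mrpl43: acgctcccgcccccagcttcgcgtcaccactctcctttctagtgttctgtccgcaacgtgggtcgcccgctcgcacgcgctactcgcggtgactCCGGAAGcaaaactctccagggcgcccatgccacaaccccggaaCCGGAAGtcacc
Mrpl48: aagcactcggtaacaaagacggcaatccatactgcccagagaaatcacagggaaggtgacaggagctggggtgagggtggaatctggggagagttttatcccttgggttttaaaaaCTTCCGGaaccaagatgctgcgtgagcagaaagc
In Mrpl22 a GABPA match begins 53 bases and an NRF1 match 33 bases before the start. Mrpl43 has a pair of GABPA matches, and Mrpl39 has overlapping NRF1 matches on both strands. The GABPA match of Mrpl48 is on the opposite strand and is shown as its reverse complement.

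The members lie on 17 chromosomes. Mrpl46 and Mrps11 are the only members within 100 kb of each other, divergent genes on chromosome 7 with 41 bases between them. Mrpl46 was at 0.65, and Mrps11 was below the filter on dim probe sets.

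Other genes of mitochondrial translation were described from lists. Of 4 tested proteins of the mitochondrial ribosome with other symbols 0 passed limma's test (0 at an unadjusted p under 0.05) and 4 were negative, with a median of -0.85. They include Dap3, a small subunit protein that binds GTP (-1.44 ± 0.74, adjusted p = 0.549), and Chchd1 (-0.46 ± 0.33, adjusted p = 0.674). Of 18 tested translation factors 0 passed (1 lower at an unadjusted p under 0.05) and 14 were negative, with a median of -0.37. The release factor Mtrf1l was at -2.05 ± 0.88 (adjusted p = 0.462) and the elongation factor Tufm at -1.48 ± 0.72 (adjusted p = 0.524), each with its lowest value on aged replicate 52. Of 22 tested genes of ribosome assembly and ribosomal RNA modification 0 passed (1 lower unadjusted) and 18 were negative, with a median of -0.30. Among them the RNA methyltransferase Mrm1 was at -2.08 ± 0.72 (adjusted p = 0.312) and Spg7, a protease subunit that matures Mrpl32, at -0.99 ± 0.51 (adjusted p = 0.553). Mrpl32 itself was at 0.026 ± 0.34.

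Lists of charging enzymes and of mitochondrial DNA expression had medians above 0, with quartiles on both sides of it. The quartiles were -0.49 and 0.49 for the former and -0.15 and 0.40 for the latter. Of 15 tested mitochondrial aminoacyl-tRNA synthetases 0 passed limma's test (1 higher at an unadjusted p under 0.05) and 6 were negative, with a median of 0.11. Tars2, which charges threonine, was at 1.62 ± 0.51 (adjusted p = 0.257) and Fars2, which charges phenylalanine, at -0.67 ± 0.32 (adjusted p = 0.513). Of 18 tested genes of mitochondrial DNA upkeep and transcription 0 passed (0 unadjusted) and 8 were negative, with a median of 0.10. Tfam, which packs and helps transcribe mitochondrial DNA, was at 0.43 ± 0.36 (adjusted p = 0.723), and Mterf1a, of the family of mitochondrial termination factors, at 2.08 ± 1.01 (adjusted p = 0.527). No gene of mitochondrial DNA itself had a named probe set here.

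The respiratory chain and the cytosolic ribosome had more negative medians than the members. Of 32 tested complex I subunits 30 were negative and 0 passed limma's test (8 lower at an unadjusted p under 0.05), with a median of -0.37. Of 39 tested genes with symbols of complexes III to V 36 were negative and 1 passed (13 lower unadjusted), with a median of -0.38. The gene that passed was Atp5o, which encodes part of the ATP synthase stalk (-1.12 ± 0.22, limma adjusted p = 0.0299). Of 43 tested cytosolic ribosomal protein genes 34 were negative and 0 passed (13 lower and 1 higher unadjusted), with a median of -0.24. The median SE of these lists was 0.23, 0.23 and 0.25, beside 0.28 in the brightest group of all tested probe sets. In that group 22.2% had an unadjusted p under 0.05 in either direction and 59.5% were negative. Whether the median differences of these lists differ from that of the members was not tested.

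**Figure D4:**
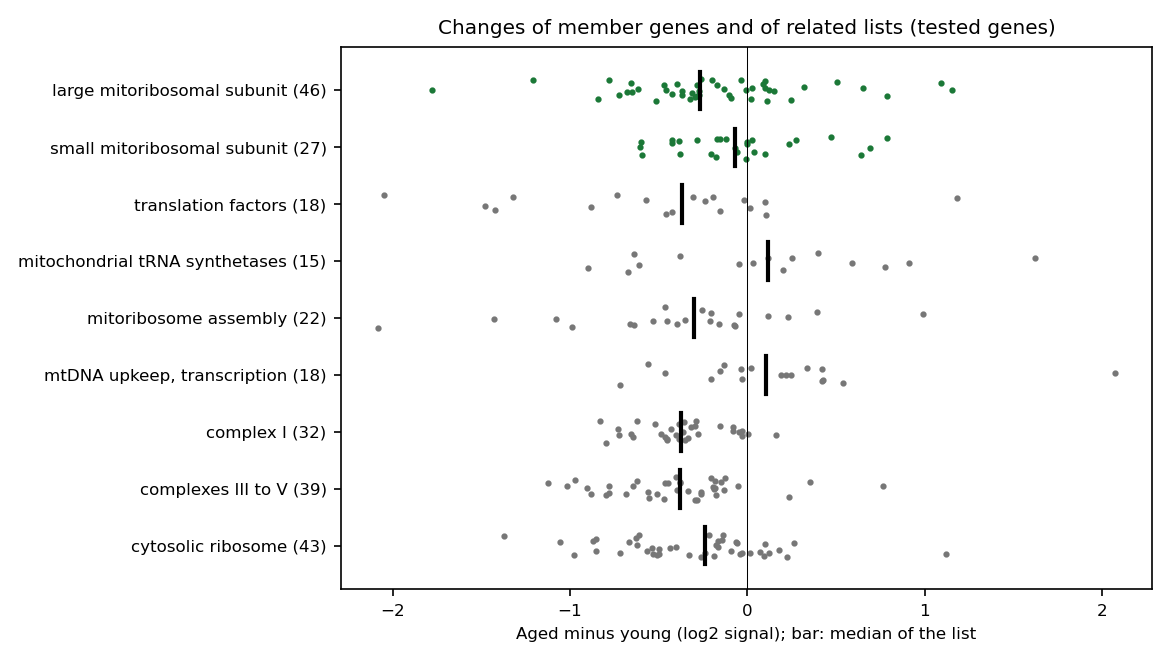
Aged minus young difference in log2 signal (horizontal axis) of each tested gene of both subunits (green) and of 7 related lists (grey), with a black bar at each list's median and the number of tested genes in brackets. The bars lie at -0.27 for the large and -0.067 for the small subunit, at -0.37 and -0.38 for the respiratory chain and above 0 for tRNA synthetases and mitochondrial DNA upkeep.

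Markers of slow fibres, matrix and fat cells differed between the groups in the same arrays. The groups differed in the 3 prime to 5 prime ratio as well as in age, and its part in these markers was not tested. Of 8 slow-twitch fibre markers 7 passed limma's test, all lower (8 lower at an unadjusted p under 0.05), and 8 were negative. Their median was -3.35, and their summed signal was 149059 to 182668 in young and 19865 to 23563 in aged muscle. Of 10 general muscle fibre markers 0 passed limma's test (7 lower at an unadjusted p under 0.05) and 10 were negative, with a median of -0.61. Of 7 fibroblast and matrix markers 4 passed, all lower (6 lower unadjusted), and 7 were negative. Their summed signal was 709487 to 939380 in young and 72436 to 83343 in aged muscle. Of 5 tested fat cell markers 3 passed, all higher (4 higher unadjusted), and 5 were positive. The summed signal of 6 was 74112 to 86035 in young and 150241 to 256167 in aged muscle. Among macrophage, endothelial and satellite cell markers 0 of 6, 0 of 5 and 0 of 6 passed (0 of each unadjusted). No marker was at 0 on any array. Fewer cells of a type and less RNA per cell cannot be told apart in whole muscle, and the part of these markers in the members' values was not tested.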

How the data were processed

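Per the submitters' processing notes, the deposited intensity values, 1 linear signal per probe set and array, were made with MAS5; no source used here names its version or settings. With the top and bottom 2% of probe sets trimmed, every array had a mean of 1500.01, the mark of a scaling by the authors to a common target. The deposited run settings of other kinds gave only the fluidics protocol and station. The number of arrays limits the precision.

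Intensities were taken to log2. The 64 control probe sets and 22518 probe sets with a mean log2 signal below the median (9.08) were left out. The test of aged against young arrays used limma 3.58.1 under R 4.3.3 (lmFit, eBayes with trend, two-sided, Benjamini-Hochberg over 22519 probe sets, threshold 0.05), which was tested on simulated data. The groups share no replicate numbers. All 76 member symbols matched the reference by gene ID, and 4 probe sets with several symbols, a member among them, were left out.

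Named members were those past the threshold, the 4 most positive and 4 most negative and the 3 most precise of each subunit, and 10 fixed genes; Mrpl2 to Mrpl4, Mrpl20 to Mrpl24, Mrpl27, Mrpl28, Mrpl32, Mrpl35, Mrpl44, Mrpl45, Mrpl48, Mrpl51, Mrpl58 and Mrps23 were added after their values were seen. Of each list the genes past the threshold and up to 2 others with the smallest p were eligible; Tfam is among these. Members and lists were chosen with earlier results of these data known. Figures were drawn with matplotlib 3.10.9 in Python 3.11.15.

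The alternatives tried were median centring, quantile normalization, the fit with no filter, only the brightest probe sets (mean log2 of at least 10.34), a pseudocount of 219 (25th percentile), eBayes without trend, array weights, station or RNA integrity as a covariate, station 1 alone, each array left out, probe sets averaged, cross-hybridising probe sets left out, and subunits by structure.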

Additional observations from a re-analysis of the deposited data

How the results depend on the processing

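The count of members past limma's adjusted threshold was 0 under all alternatives except with the station as a covariate and on station 1 alone, where it was 1 (Mrpl40). Over all probe sets the count of 237 became 21 with eBayes without trend, 365 on station 1 alone, 138 with the RNA integrity ratio as a covariate and 136 without probe sets prone to cross-hybridisation, and it ranged from 124 to 342 when each array was left out in turn. The count of members lower at an unadjusted p under 0.05 was 2 with eBayes without trend and ranged from 2 to 11 with arrays left out. The share of all tested probe sets lower by this rule was 4.35% and 3.65% to 8.71% in the same fits, beside 5.61% as reported. Every aged array lay below every young array on 10 of 73 members, and above on 4, with probe sets averaged. Without cross-hybridising probe sets it was 9 below and 3 above, of 58 members. With single arrays left out, and so fewer values to separate, 16 to 21 members were below and 4 to 6 above. The members' median was -0.28 with median centring, -0.25 with the station as a covariate and on station 1 alone, -0.39 with RNA integrity as a covariate, and -0.28 to -0.083 with arrays left out. The large subunit median was -0.38 with median centring, -0.39 with RNA integrity, -0.18 with probe sets averaged, and -0.29 to -0.089 with arrays left out. The small subunit median was -0.18 with median centring, -0.16 with the station as a covariate and on station 1 alone, -0.12 with array weights and with no filter, -0.43 with RNA integrity, and -0.13 (without aged replicate 53) to 0.0098 (without aged replicate 51) with arrays left out; it was -0.035 with quantile normalization and -0.037 without cross-hybridising probe sets. The large minus small difference was -0.096 with array weights, -0.11 with probe sets averaged, 0.039 with RNA integrity, and -0.17 to -0.092 with arrays left out. The cause of these shifts was not tested.

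Single genes changed sign, both near 0 and further from it. As reported Mrps5 and Mrpl49 were at 0.79, Mrps25 at -0.61, Mrps24 at 0.47 and Mrps18b at -0.39. The sign of each of these turned under 1 alternative. With quantile normalization Mrpl11 was at 0.045 and Mrps18a at -0.035. With median centring Mrpl52 was at -0.0029, Mrps12 at -0.017, Mrps18a at -0.078 and Mrps30 at -0.091. With array weights Mrps18a was at -0.016 and Mrps30 at -0.0079. With the station as a covariate and on station 1 alone Mrps18a was at -0.16. With RNA integrity Mrpl52 was at -0.26, Mrps24 at -0.12, Mrps12 at -0.43 and Mrps18a at -0.64. With probe sets averaged Mrps5 was at -0.32 and Mrpl11 at 0.19, and Mrpl11 was at 0.44 without cross-hybridising probe sets. With arrays left out the ranges were -0.28 to 0.039 (Mrpl10), -0.44 to 0.34 (Mrpl11), -0.059 to 1.23 (Mrpl49), -0.056 to 0.26 (Mrpl52), -0.12 to 0.33 (Mrps12), -0.45 to 0.15 (Mrps15), -0.27 to 0.25 (Mrps18a), -0.91 to 0.30 (Mrps18b), -1.12 to 0.071 (Mrps25) and -0.28 to 0.34 (Mrps30). Mrpl40, Mrpl43, Mrpl33, Mrpl55, Mrpl42, Mrpl39, Mrpl12, Mrps36, Mrps33 and Mrps18c stayed negative under every alternative that measured them. Mrpl34, Mrpl14, Mrpl46, Mrps7 and Mrps22 stayed positive under every alternative that measured them. Probe sets below the filter on dim signal were not compared, and 3 arrays per group limit the precision. No paired analysis was possible because the groups share no replicate numbers.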

Other observations

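Genes that steer mitochondrial biogenesis did not pass limma's test in either direction. Of 12 tested regulators 0 passed (0 at an unadjusted p under 0.05) and 5 had a negative difference, with a median of 0.096. Nfe2l2, a regulator of the response to oxidative stress, had 12.52, 12.34 and 12.43 in young and 11.54, 11.48 and 12.31 in aged muscle (-0.66 ± 0.30, adjusted p = 0.503), with no overlap. The nuclear receptor Esrrb was at 1.30 ± 0.63 (adjusted p = 0.527), with overlapping groups. Of 13 tested genes of the mitochondrial unfolded protein response 0 passed (1 lower unadjusted) and 9 were negative, with a median of -0.095. Ddit3, a transcription factor of stress responses, had 11.55, 11.39 and 11.69 in young and 11.54, 8.72 and 9.51 in aged muscle. Its difference of -1.62 ± 0.62 (adjusted p = 0.384) came from aged replicates 52 and 53, the arrays of station 2. Atf5, a factor that drives this response, was at 0.64 ± 0.50 (adjusted p = 0.705), with every aged array above every young array.

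Malsu1, an assembly factor that binds Mrpl14 on the large subunit, was looked at after the values of Mrpl14 were seen. It had 9.64, 11.15 and 12.34 in young and 11.86, 12.27 and 11.97 in aged muscle (0.99 ± 0.54, adjusted p = 0.577). Its lowest value was on young replicate 1, the array on which Mrpl14 and Mrpl34 were also lowest.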
